A study of Mus musculus with 158 samples.

Results

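Pool 18 of a short hairpin RNA (shRNA) screen was followed from the day of injection into lung tumours and, in parallel, in culture. Its members were all hairpins listed under pool 18 in the deposited tables. They numbered 53 of the 1000 targeting hairpins in the 19 pools of the screen, and were aimed at 26 of 285 target genes. Among these genes, 4 had 1 hairpin in the pool, 18 had 2, 3 had 3 and 1 had 4. Every gene name was found in the RefSeq mouse gene table (GRCm38.p6), and for 25 of the 26 the RefSeq transcript given with a hairpin led to the same gene; Zim2 was matched by symbol only. All 53 hairpins had enough reads to be tested in each comparison.

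The cells were PDA530 Met, a mouse pancreatic ductal adenocarcinoma line that came from a metastasis in the liver. Pool 18 virus was added at a multiplicity of infection of 0.3, meant to leave most infected cells with a single hairpin, and infected cells were selected with puromycin at 3 µg/ml for 4 days. The comparison was of 3 groups with 3 libraries each. The day 0 group (replicates A, B and C) was made from pelleted cells that were infected and selected but not injected. The lung group was made from 3 mice given cells through the tail vein and sampled on day 28, with every lung tumour of a mouse combined into 1 DNA sample. The culture group was grown in vitro until day 28. Infection, selection and hairpin expression were common to all 3 groups. The strain, sex and age of the mice are not given in the labels, nor is it said whether the day 0 and culture replicates came from separate infections, so p-values measure the spread between these samples. The culture libraries held pool 18 and pool 19 cells together, and their pool 18 values are shares within pool 18 alone.

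An shRNA is a stem-loop transcript that the cell cuts into a small interfering RNA, which directs destruction of messenger RNA with a matching sequence. The virus inserts the hairpin into the genome, so it is copied at each division and acts as a heritable tag of the cell and its descendants. In a pooled screen the share of each hairpin among all hairpin reads is followed over time: the share falls when cells with that hairpin are lost or divide more slowly than the rest, and rises in the opposite case. Cells injected into the tail vein are carried to the lung capillaries, where they must lodge, leave the vessel, survive and grow, steps that cells in a dish do not face. Different hairpins against the same gene can deplete its messenger RNA to different degrees and can each touch unintended transcripts. Reads count hairpin copies in genomic DNA, so more cells and more copies per cell cannot be told apart.

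Sequencing depth was similar in the 9 libraries. They held 6850431 to 9265654 reads each, of which 3593668 to 6924840 belonged to pool 18. Pool 18 made up 74.2% to 74.7% of reads at day 0, 78.1% to 82.1% in lungs and 52.5% to 54.9% in culture, where pool 19 contributed 27.8% to 29.8%. All 53 hairpins had reads in 8 of the 9 libraries, and 52 had reads in culture replicate A. Agreement between replicates, measured as Pearson's r of log2 shares across the 53 hairpins (hairpins are not independent replicates), was 0.987 to 0.996 at day 0, 0.937 to 0.964 in culture and 0.891 to 0.926 in lungs. A typical hairpin varied between replicates with an SD of 0.17 on the log2 scale at day 0, 0.35 in culture and 0.59 in lungs. Lung replicate B held the highest of the 3 lung shares for 27 hairpins, against 14 for replicate A and 12 for replicate C.

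In lungs, 18 of the 53 hairpins differed from day 0, 9 higher and 9 lower. Among the hairpins that rose were those against Tmem45b (both hairpins), Nalcn (both hairpins), Dusp6, Sfn and Rbm8a, and among those that fell were hairpins against Vcp, Cnot2, Arid2, Slc37a2, Tmem33 and Dock8. Coro1c and Trit1 each had a hairpin that rose and another that fell. The test was limma on log2(CPM + 1), where CPM scales the reads of a hairpin to a fixed total of pool 18 reads, with p-values adjusted by the Benjamini-Hochberg method over the hairpins of all pools and a threshold of 0.05. Over all pools the same test called 33.8% of hairpins, 14.7% as higher and 19.1% as lower; in pool 18 it called 34.0%, 17.0% in each direction, close to that background. The median change of the 53 hairpins was 0.02 on the log2 scale, beside -0.13 for all 891 hairpins tested. The split of the calls moved with the settings, with 8 higher and 12 lower on plain shares, 11 and 8 on the control total, and 14 and 11 with DESeq2. With the replicate letter as a block it was 8 and 10: the calls of Nalcn TRCN0000412654, Coro1c TRCN0000313283 and Trit1 TRCN0000329236 ended, and Zdhhc4 TRCN0000241334 (higher), Mast4 TRCN0000360967 and Psmd12 TRCN0000328650 (both lower) were called.

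Culture differed from day 0 for 24 hairpins, 7 of them higher and 17 lower. Ruvbl1, Zdhhc4 (2 of 3 hairpins), Nalcn and Arntl2 had hairpins that rose, and all 4 Dock8 hairpins and both Coro1c hairpins fell. Over all pools 60.6% of hairpins were called in this comparison, 28.8% higher and 31.9% lower, beside 45.3% in pool 18, 13.2% higher and 32.1% lower. Of the 24 calls, 12 ended when all 3 groups were fitted in 1 model, those of Arid2 TRCN0000218090, both Arntl2 hairpins, Cnot2, Coro1c TRCN0000313283, Dock8 TRCN0000241447 and TRCN0000241449, Sesn2, Slc37a2, Tmem33, Zdhhc4 TRCN0000241336 and Zim2, which left 5 higher and 7 lower. Without culture replicate B, 10 were called higher and 10 lower; with 1 library left out, the higher calls ran from 6 to 11 and the lower from 10 to 17. The medians were -0.08 for pool 18 and -0.10 for all 945 hairpins tested. Lungs differed directly from culture for 13 hairpins, of which 9 were higher in lungs and 4 lower. The background of that comparison was 24.9%, with 11.6% higher and 13.3% lower, beside 24.5% in pool 18, with 17.0% higher and 7.55% lower. The same joint model called 21 hairpins here, 12 higher and 9 lower. Without culture replicate C 8 were called. Scaled on the control total, 12 were higher and 3 lower. Both medians were -0.11. No test compared pool 18 with the other pools. The comparisons with day 0 share the day 0 libraries, and lungs against culture shares a group with each of them.

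Changes below are log2 differences ± SE from these fits, with 3 libraries in each pool 18 group. They are relative to trimmed-mean (TMM) scaled totals, so they can differ somewhat from ratios of the plain shares that precede them. With plain shares in place of the scaled totals, the median change of pool 18 became -0.25 in lungs and -0.36 in culture relative to day 0, and none of the called hairpins reversed its direction.

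Coro1c encodes a coronin, a regulator of actin filaments. Its hairpin TRCN0000313282 made up 1.5%, 1.65% and 1.31% of pool 18 reads at day 0, 0.158%, 0.229% and 0.414% in culture and 4.86%, 6.61% and 3.86% in lungs (replicates A, B and C in each case). The groups did not overlap: all 3 lung libraries lay above day 0 and all 3 culture libraries below it. The hairpin rose in lungs by 2.03 ± 0.24 (limma adjusted p = 0.00116), fell in culture with a change of -2.30 ± 0.30 (limma adjusted p = 0.000514) and was 21.3-fold higher in lungs than in culture (limma adjusted p = 0.000141). In the main fits it was the only hairpin of the pool called in opposite directions in lungs and culture. With plain shares, Trit1 TRCN0000329236 was so called as well. The other Coro1c hairpin, TRCN0000313283, had 4.83%, 4.70% and 4.85% at day 0, 3.11%, 2.98% and 3.12% in culture and 2.66%, 2.44% and 2.43% in lungs, so that both later groups lay below the start. Its changes were -0.66 ± 0.16 in lungs (limma adjusted p = 0.021) and -0.36 ± 0.12 in culture (limma adjusted p = 0.0414), both small. Neither call was kept without any 1 of the 3 day 0 libraries A, B and C (limma adjusted p = 0.0702, 0.0629 and 0.0665 for lungs, 0.107, 0.0697 and 0.12 for culture), and the culture call also ended without culture replicate B (-0.15, adjusted p = 0.5) or C (adjusted p = 0.0915). With replicate letters as a block, the limma adjusted p in lungs was 0.0628, and with the control total as scaling 0.0722. DESeq2 size factors ended the culture call (0.314).

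Dock8 is a guanine nucleotide exchange factor that activates Cdc42, a small GTPase of cell shape and migration. All 4 of its hairpins fell in culture, and 2 of the 4 fell in lungs. TRCN0000241449 had 0.0559%, 0.0642% and 0.0437% at day 0, 0.0111%, 0.0217% and 0.0331% in culture and 0.00367%, 0.0162% and 0.000928% in lungs, where the 3 mice spanned a 17.5-fold range and none reached the day 0 level. TRCN0000241447 had 0.344%, 0.468% and 0.398% at day 0, 0.182%, 0.158% and 0.228% in culture and 0.0932%, 0.155% and 0.127% in lungs, again with both later groups wholly below the start. Their lung changes were -3.49 ± 1.02 (limma adjusted p = 0.0365) and -1.43 ± 0.36 (limma adjusted p = 0.0215). The remaining Dock8 hairpins were spread widely over the mice. TRCN0000241448 went from 0.628%, 0.818% and 0.708% at day 0 to 0.119%, 0.139% and 0.336% in culture and 0.872%, 0.422% and 0.201% in lungs, with culture below the start and the mice on both sides of it. TRCN0000241446 went from 0.171%, 0.228% and 0.158% at day 0 to 0.0302%, 0.00420% and 0.0103% in culture and 0.242%, 0.0765% and 0.0132% in lungs. For both, lung replicate A lay above every day 0 library and replicates B and C below, and neither lung change passed the test (-0.49 ± 0.53 and -1.27 ± 0.97). In culture the changes were -3.77 ± 0.74 for TRCN0000241446 (limma adjusted p = 0.00404; -4.59 without culture replicate A and -2.90 without B), -1.73 ± 0.36 for TRCN0000241448 (0.0055), -1.15 ± 0.42 for TRCN0000241449 (0.0499) and -0.81 ± 0.23 for TRCN0000241447 (0.0194). No Dock8 hairpin was called between lungs and culture. The lung call of TRCN0000241449 ended without day 0 replicate A, B or C (limma adjusted p = 0.0618, 0.083 and 0.0756), without lung replicate A or C (0.0775 and 0.0503) and with edgeR on the recovered reads (0.0846); the change was -4.54 without lung replicate B, -2.51 without C and -2.66 with edgeR. That of TRCN0000241447 ended without day 0 replicate B or C (0.073 and 0.0696). In culture, TRCN0000241447 lost its call without day 0 replicate B or C or culture replicate B (limma adjusted p = 0.0691, 0.0628 and 0.0568; change -0.50 in the last case). TRCN0000241449 lost it without any 1 of day 0 replicates A, B and C (0.125, 0.15 and 0.0814) or without culture replicate A or B (0.073 and 0.115), and with edgeR (0.0644) or DESeq2 (0.064).

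Fmn2 encodes a formin, which nucleates straight actin filaments. Its 2 hairpins moved apart in culture. TRCN0000417286 fell from 0.202%, 0.234% and 0.155% at day 0 to 0.0138%, 0.0109% and 0.0235% in culture, while in lungs it stood at 0.320%, 0.410% and 0.233%. Culture lay below the other groups in every library, and only lung replicate C (0.233%) fell within the day 0 range. The change was -3.38 ± 0.36 in culture (limma adjusted p = 0.000159) and 0.96 ± 0.37 in lungs (limma adjusted p = 0.081, not called), and lungs exceeded culture by 21.5-fold (limma adjusted p = 0.000729). TRCN0000417587 rose in culture, from 0.130%, 0.146% and 0.116% to 0.266%, 0.230% and 0.339%, a change of 1.36 ± 0.21 (limma adjusted p = 0.00121). In lungs it had 0.0918%, 0.257% and 0.104%, with 1 mouse above day 0 and the other two below, and was not called.

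Iqgap1 is a scaffold that binds Rac1, Cdc42 and members of the ERK cascade. Its hairpin TRCN0000428346 made up 1.55%, 1.72% and 1.63% at day 0, 0.313%, 0.330% and 0.354% in culture and 1.47%, 1.05% and 1.55% in lungs. The 3 culture libraries were close to each other and far below all others. With a change of -2.01 ± 0.15 it had the lowest adjusted p of pool 18 in culture against day 0 (limma adjusted p = 2.28e-05), whereas the lung change was -0.01 ± 0.25 (limma adjusted p = 0.979) and lungs exceeded culture by 2.09 ± 0.35 (limma adjusted p = 0.0033). TRCN0000419323 had 0.335%, 0.363% and 0.325% at day 0, 0.194%, 0.395% and 0.442% in culture and 0.285%, 2.64% and 0.403% in lungs. Lung replicate B stood far above all other libraries, and the hairpin was not called in any comparison.

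The signalling list had 4 genes and 7 hairpins. Relative to day 0, in lungs 2 rose and none of the 7 fell; in culture 1 fell and none rose; between lungs and culture 2 were higher and none was lower. The medians were 0.54, 0.22 and 0.85, beside 0.02, -0.08 and -0.11 for the whole pool. Over all pools, 14.7% of hairpins were called higher and 19.1% lower in lungs, and 28.8% and 31.9% in culture. Between lungs and culture these shares were 11.6% and 13.3%. No gene list was tested against the rest. Dusp6 is a phosphatase that switches off ERK, the last kinase of the Ras pathway. Its hairpin, TRCN0000350080, went from 6.74%, 6.10% and 6.73% at day 0 to 17.2%, 10.0% and 12.8% in lungs, with 5.95%, 5.34% and 6.39% in culture. All 3 lung libraries exceeded all others, and Dusp6 was the most abundant hairpin of the pool in lungs, at 13.3% ± 3.60 (SD, n = 3). The rise was 1.27 ± 0.23 over day 0 (limma adjusted p = 0.00624) and 1.22 ± 0.27 over culture (limma adjusted p = 0.0117), with a culture change of 0.14 ± 0.14 (limma adjusted p = 0.42). The first call ended without day 0 replicate A (limma adjusted p = 0.112) and the second without culture replicate C (0.0648).

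Sfn encodes 14-3-3 sigma, which p53 induces and which holds back the cell cycle. TRCN0000436998 had 0.357%, 0.472% and 0.380% at day 0, 0.422%, 0.443% and 0.541% in culture and 0.837%, 1.05% and 1.21% in lungs, with each lung library above every other library. It rose by 1.63 ± 0.33 over day 0 (limma adjusted p = 0.00899) and by 1.21 ± 0.34 over culture (limma adjusted p = 0.0321). The second call ended without culture replicate A, B or C (limma adjusted p = 0.089, 0.119 and 0.067) or lung replicate C (0.0703). TRCN0000437399 had 0.445%, 0.550% and 0.393% at day 0, 0.138%, 0.507% and 0.437% in culture and 0.817%, 2.22% and 0.395% in lungs, with lung replicate B highest and replicate C inside the day 0 range. Its lung change of 1.24 ± 0.62 did not pass the test.

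Sesn2 is a sestrin, a stress-induced inhibitor of the growth regulator mTORC1. TRCN0000340902 fell in culture from 2.23%, 2.13% and 2.16% to 0.909%, 0.840% and 0.823% (-1.06 ± 0.15, limma adjusted p = 0.000803), with groups that did not overlap. In lungs it had 0.685%, 2.23% and 2.05%, with replicate A far below the other two, and the change of -0.29 ± 0.47 was not called. Its partner TRCN0000340899 had 0.253%, 0.331% and 0.209% at day 0, 0.106%, 0.305% and 0.478% in culture and 0.429%, 0.829% and 0.0849% in lungs, a 9.77-fold range among the mice, and was not called. Mast4, a microtubule-associated kinase, had 2 abundant hairpins, neither called. TRCN0000360914 made up 5.63%, 5.48% and 5.88% at day 0 and 3.13%, 4.04% and 8.97% in lungs. TRCN0000360967 made up 3.02%, 3.11% and 3.19% at day 0 and 0.967%, 0.908% and 2.63% in lungs. In lungs both were highest in replicate C.

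Genes of RNA processing and translation numbered 5, with 10 hairpins. In lungs against day 0, 2 rose and 2 fell; in culture none rose and 1 fell; between lungs and culture 2 were higher and 2 lower. The medians were -0.73, -0.20 and -0.27, beside 0.02, -0.08 and -0.11 for the whole pool. Shares called over all pools are given with the signalling list. Cnot2 is a subunit of the CCR4-NOT complex, which shortens the poly(A) tails of messenger RNA. Its hairpin TRCN0000233432 made up 4.68%, 4.20% and 4.72% at day 0, 2.40%, 2.27% and 2.81% in culture and 0.993%, 0.470% and 0.901% in lungs. Each group lay wholly below the one before it. The lung change was -2.32 ± 0.32 (limma adjusted p = 0.00199), the culture change -0.58 ± 0.13 (limma adjusted p = 0.00721) and the difference between lungs and culture -1.65 ± 0.37 (limma adjusted p = 0.0125). It was the only hairpin called lower in all 3 comparisons. The culture call ended without culture replicate B (-0.34, limma adjusted p = 0.143) or with DESeq2 size factors (adjusted p = 0.0836), and that between lungs and culture without culture replicate C (0.0758).

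Trit1 attaches an isopentenyl group to adenosine in certain transfer RNAs. Its 3 hairpins did not move together. TRCN0000375310 had 5.80%, 5.79% and 6.35% at day 0, 4.08%, 4.33% and 4.23% in culture and 1.33%, 0.889% and 0.910% in lungs, a further step down in each group. It had the lowest adjusted p of the pool in lungs against day 0, with a change of -2.27 ± 0.21 (limma adjusted p = 0.000437), and was lower in lungs than in culture by 3.90-fold (limma adjusted p = 0.00146). The rarer TRCN0000329236 moved the other way in lungs. Its shares were 0.0436%, 0.0559% and 0.0604% at day 0, 0.0173%, 0.0316% and 0.0205% in culture and 0.164%, 0.183% and 0.108% in lungs, and the 3 groups did not overlap. It rose by 1.76 ± 0.46 over day 0 (limma adjusted p = 0.0245) and by 2.80 ± 0.56 over culture (limma adjusted p = 0.00763). The first call ended without day 0 replicate A, B or C (limma adjusted p = 0.0607, 0.073 and 0.0583) and with the replicate letters as a block (0.0814). The third hairpin, TRCN0000329237, had 0.673%, 0.853% and 0.616% at day 0, 0.393%, 0.609% and 0.551% in culture and 0.299%, 0.274% and 0.452% in lungs. Its lung change of -0.81 ± 0.34 was not called, although lungs lay below day 0 in every library.

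Rbm8a is a core protein of the exon junction complex, which marks spliced messenger RNA. TRCN0000434151 had 1.10%, 1.26% and 1.07% at day 0, 1.16%, 0.992% and 1.31% in culture and 1.78%, 3.15% and 2.04% in lungs, with all lung libraries on top. It rose by 1.26 ± 0.30 over day 0 (limma adjusted p = 0.0173) and by 1.06 ± 0.33 over culture (limma adjusted p = 0.0484). The second call ended without culture replicate A or B (limma adjusted p = 0.089 and 0.141) or lung replicate A or C (0.0532 and 0.0521), and with plain shares (0.0603). The other Rbm8a hairpin was rare: TRCN0000443180 had 0.00608%, 0.00953% and 0.00701% at day 0, 9.42e-05%, 0.0160% and 0.00414% in culture and 0.00276%, 0.000505% and 0.000681% in lungs. Every lung library lay below day 0, and the change of -2.50 ± 0.87 missed the threshold (limma adjusted p = 0.0601). Its 3 cultures spanned the widest spread of any pool 18 hairpin in culture, with an SD of 3.27 on the log2 scale. That spread rests on few reads, since the cultures had 4, 574 and 199 reads of it. The hairpins against Bzw2, a regulator of translation initiation, and Znrd1, a subunit of RNA polymerase I, were not called in any comparison. Among them TRCN0000430118 (Bzw2) stood at 2.96%, 2.78% and 3.10% at day 0 and 2.75%, 3.36% and 2.22% in lungs. TRCN0000316014 (Znrd1) went from 0.981%, 1.32% and 1.06% to 0.336%, 0.906% and 0.144%.

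Of the 10 hairpins against the 5 genes of chromatin and transcription, none rose and 1 fell in lungs against day 0. In culture 3 rose and 4 fell, and between lungs and culture 1 was higher and 2 lower. The medians were 0.01, -0.24 and 0.11, beside 0.02, -0.08 and -0.11 for the whole pool. Shares called over all pools are given with the signalling list. Arid2 is a subunit of the PBAF chromatin remodelling complex. TRCN0000225732 had 0.604%, 0.757% and 0.514% at day 0, 0.228%, 0.598% and 0.856% in culture and 0.0803%, 0.131% and 0.0985% in lungs. The lung libraries lay below all others, and culture overlapped day 0. The change in lungs was -2.33 ± 0.36 (limma adjusted p = 0.00312), and the difference from culture was -2.19 ± 0.55 (limma adjusted p = 0.0213). The latter call ended without culture replicate B or C (limma adjusted p = 0.063 and 0.079) and without lung replicate A, B or C (0.0628, 0.0631 and 0.0516). TRCN0000225734 had 0.182%, 0.200% and 0.137% at day 0 and 0.0927%, 0.313% and 0.0888% in lungs, and was not called. In culture it had 2269, 4930 and 7498 reads, with a mean share of 0.116%. The rarest hairpin of the pool, TRCN0000218090, had 0.00357%, 0.000524% and 0.00281% at day 0, 0%, 0.000250% and 4.16e-05% in culture and 0.00154%, 1.44e-05% and 5.80e-05% in lungs. Culture replicate A had 0 reads of it, which allows a share of up to 7.06e-05% (3 reads, counting error only). Its fall in culture (-3.31 ± 1.08, limma adjusted p = 0.0329) ended without day 0 replicate A or C (limma adjusted p = 0.0965 and 0.103), without culture replicate A or C (0.0673 and 0.149) and with DESeq2 (0.0955). The fitted change of so rare a hairpin depends on the libraries and the pseudocount: without day 0 replicate B it was -4.09, and with 10 CPM in place of 1 it was -1.36 (limma adjusted p = 0.0668).

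Ruvbl1, an AAA+ ATPase of the INO80 and R2TP complexes, had 1 hairpin, TRCN0000320136. It rose in culture from 6.82%, 6.41% and 6.59% to 14.2%, 15.7% and 13.1% and stood at 8.90%, 5.90% and 6.27% in lungs. Culture lay above every other library, and lungs overlapped day 0. With 14.3% ± 1.26 (SD, n = 3) it was the most abundant hairpin of the pool in culture. The culture change was 1.40 ± 0.14 (limma adjusted p = 0.000113), the lung change 0.34 ± 0.21 (limma adjusted p = 0.242) and lungs against culture -0.97 ± 0.26 (limma adjusted p = 0.028). This last call ended without culture replicate A, B or C (limma adjusted p = 0.0854, 0.0869 and 0.165), without lung replicate B (-0.65, adjusted p = 0.0549) or C (adjusted p = 0.0959), and with DESeq2 size factors or the control total as scaling (0.0794 and 0.146).

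Zscan20, a zinc finger and SCAN domain protein, repeated the pattern of Fmn2, with hairpins called in opposite directions in culture. TRCN0000415744 fell from 0.0883%, 0.136% and 0.101% to 0.00678%, 0.0143% and 0.0177% in culture and had 0.150%, 0.335% and 0.174% in lungs. Culture lay below both other groups and lungs above day 0 in every library. The changes were -2.86 ± 0.40 in culture (limma adjusted p = 0.000701) and 1.23 ± 0.46 in lungs (limma adjusted p = 0.0745, not called), and lungs exceeded culture by 18.0-fold (limma adjusted p = 0.00214). TRCN0000414327 rose in culture from 0.0764%, 0.0790% and 0.0656% to 0.151%, 0.210% and 0.231% (1.69 ± 0.23, limma adjusted p = 0.00054) and had 0.0848%, 0.247% and 0.0591% in lungs, where replicate B was far above the other two. Arntl2, a circadian bHLH-PAS transcription factor, likewise had 1 hairpin on each side. TRCN0000437965 went from 0.133%, 0.176% and 0.133% at day 0 to 0.215%, 0.359% and 0.444% in culture (1.44 ± 0.26, limma adjusted p = 0.00231) and had 0.0493%, 0.199% and 0.0774% in lungs. TRCN0000442230 went from 0.0722%, 0.0924% and 0.0711% to 0.0294%, 0.0316% and 0.00962% (-1.62 ± 0.55, limma adjusted p = 0.0401) and had 0.0677%, 0.05% and 0.120% in lungs. That fall was lost without day 0 replicate A, B or C (limma adjusted p = 0.0841, 0.114 and 0.0857), without culture replicate B (0.0572) and with edgeR (0.054); without culture replicate C the change was -1.003. Of the Zim2 hairpins, against a zinc finger gene of an imprinted region, TRCN0000239564 fell in culture from 3.03%, 3.55% and 2.45% to 0.557%, 1.51% and 1.91% (-1.06 ± 0.38, limma adjusted p = 0.0454). Its lung shares were 2.27%, 3.73% and 1.83%, astride the day 0 range. The culture call ended without day 0 replicate A, B or C (limma adjusted p = 0.1, 0.124 and 0.0659), without culture replicate B (0.0632) and with edgeR (0.0569); without culture replicate A the change was -0.61. TRCN0000239561, among the 5 most abundant at day 0 and in culture, had 5.96%, 6.41% and 6.18% at day 0, 5.79%, 7.48% and 5.82% in culture and 6.12%, 3.77% and 5.60% in lungs, and was not called.

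The list of protein turnover and modification had 3 genes and 7 hairpins. Among them, none rose and 1 fell in lungs against day 0; in culture 2 rose and 1 fell; none of the 7 was called between lungs and culture. The medians were 0.18, 0.21 and -0.50, beside 0.02, -0.08 and -0.11 for the whole pool. Shares called over all pools are given with the signalling list. Vcp is an AAA+ ATPase that pulls ubiquitin-tagged proteins out of complexes and membranes for destruction. TRCN0000339130 had 0.0544%, 0.0600% and 0.0530% at day 0, 0.00443%, 0.0153% and 0.0131% in culture and 0.000945%, 0.00150% and 0.00284% in lungs. Each group lay wholly below the one before. The fall to lungs, -4.77 ± 0.67 or 27.2-fold (limma adjusted p = 0.00223), had the greatest size among the 18 called in that comparison, and culture changed by -2.24 ± 0.50 (limma adjusted p = 0.00694). The difference between lungs and culture was -2.44 ± 0.99 and was not called (limma adjusted p = 0.115). TRCN0000339131 started at 0.0455%, 0.0495% and 0.0402% and ended at 0.146%, 0.0988% and 0.00660% in culture and 0.000441%, 0.0503% and 0.0115% in lungs. Its lung shares spanned a 114-fold range, from far below day 0 in replicate A to just above it in replicate B, and it was not called.

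Psmd12 is a lid subunit of the 26S proteasome. TRCN0000328650 went from 0.314%, 0.326% and 0.324% at day 0 to 0.166%, 0.0808% and 0.194% in culture and 0.0274%, 0.00186% and 0.152% in lungs. All later libraries lay below day 0, yet the mice spanned an 81.8-fold range, and neither the lung change of -3.72 ± 1.40 (limma adjusted p = 0.0807) nor the culture change of -0.94 ± 0.36 (0.0576) passed the test. TRCN0000328649 had 0.938%, 0.899% and 0.939% at day 0 and 1.06%, 1.45% and 0.824% in lungs and was not called. Zdhhc4, a palmitoyltransferase, had 3 abundant hairpins. TRCN0000241334 rose in culture from 5.26%, 4.33% and 5.02% to 11.7%, 7.05% and 9.09% (1.19 ± 0.25, limma adjusted p = 0.0055), with 7.46%, 3.85% and 7.80% in lungs. TRCN0000241336 had 3.73%, 4.10% and 4.27% at day 0, 5.06%, 4.11% and 5.39% in culture and 4.42%, 3.93% and 3.76% in lungs, with a culture change of 0.55 ± 0.16 (limma adjusted p = 0.0224). Day 0 and culture overlapped for this hairpin, and the call ended without day 0 replicate A or B (limma adjusted p = 0.0764 and 0.0634), with plain shares (0.108), with the deposited scaling (0.135) or with the control total (0.151); without culture replicate B the change was 0.84. TRCN0000241335 had 5.82%, 5.85% and 5.83% at day 0, 4.95%, 5.57% and 6.17% in culture and 4.55%, 4.53% and 7.84% in lungs and was called in no comparison.

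Membrane and transport genes numbered 4, with 7 hairpins. Of these, in lungs against day 0, 4 rose and 2 fell; in culture 1 rose and 2 fell; between lungs and culture 1 was higher and none lower. The medians were 0.58, 0.19 and -0.11, beside 0.02, -0.08 and -0.11 for the whole pool. Over all pools, 14.7% of hairpins were called higher and 19.1% lower in lungs. In culture these shares were 28.8% and 31.9%, and between lungs and culture 11.6% and 13.3%. This list was not tested against the rest. Tmem45b encodes a transmembrane protein. Its hairpin TRCN0000379226 made up 0.947%, 1.26% and 0.853% at day 0, 0.717%, 0.970% and 1.12% in culture and 3.60%, 9.84% and 2.93% in lungs. Every mouse lay above every other library, with replicate B far above the other two. The rise was 2.50 ± 0.46 over day 0 (limma adjusted p = 0.00674) and 2.43 ± 0.46 over culture (limma adjusted p = 0.00635); without lung replicate B the rise over day 0 was 1.95. The second hairpin, TRCN0000376967, had 0.596%, 0.804% and 0.572% at day 0, 0.440%, 1.18% and 0.847% in culture and 1.60%, 3.14% and 1.21% in lungs, again highest in replicate B. It rose by 1.77 ± 0.40 over day 0 (limma adjusted p = 0.0153), while its difference from culture, 1.34 ± 0.49, was not called (limma adjusted p = 0.0851).

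Nalcn is a sodium leak channel that helps to set the resting potential of the membrane. TRCN0000413315 had 0.941%, 0.981% and 0.740% at day 0, 0.458%, 1.58% and 0.769% in culture and 2.59%, 1.32% and 2.13% in lungs. Lungs lay above day 0 in every library, and culture straddled it. Its change in lungs was 1.41 ± 0.31 (limma adjusted p = 0.0116). TRCN0000412654 had 2.89%, 2.89% and 3.07% at day 0, 7.99%, 5.38% and 5.47% in culture and 3.64%, 3.80% and 3.51% in lungs, with 3 groups that did not overlap and lungs in the middle. It rose by 0.58 ± 0.16 in lungs (limma adjusted p = 0.0303) and by 1.35 ± 0.24 in culture (limma adjusted p = 0.00231). It was the only hairpin of the pool called higher in both. The lung call ended without day 0 replicate A, B or C (limma adjusted p = 0.159, 0.155 and 0.0665), with plain shares (0.164) and with the replicate letters as a block (0.094).

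Slc37a2 exchanges sugar phosphates across the membrane of the endoplasmic reticulum. Its hairpin, TRCN0000305046, fell from 2.91%, 3.10% and 2.56% at day 0 to 1.32%, 1.97% and 1.72% in culture and 0.756%, 1.20% and 0.589% in lungs, each group below the one before. The changes were -1.53 ± 0.32 in lungs (limma adjusted p = 0.0104) and -0.51 ± 0.13 in culture (limma adjusted p = 0.0137). Tmem33 is a protein of the same membrane system. TRCN0000320319 went from 5.20%, 4.90% and 5.37% at day 0 to 2.62%, 3.23% and 2.12% in culture and 1.70%, 1.40% and 0.721% in lungs, also without overlap. It changed by -1.83 ± 0.32 in lungs (limma adjusted p = 0.00566) and -0.69 ± 0.20 in culture (limma adjusted p = 0.0196). The culture call ended without day 0 replicate A or C or culture replicate B (limma adjusted p = 0.0554, 0.0622 and 0.0622) and with DESeq2 size factors (0.0716). The other Tmem33 hairpin, TRCN0000320321, was the most abundant of the pool at day 0, at 7.26%, 6.03% and 7.11%, with 8.18%, 6.82% and 7.48% in culture and 7.34%, 4.21% and 9.17% in lungs; it was not called, and the 95% interval of its lung change ran from -0.47 to 0.93.

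Krtap5-4, a keratin-associated protein of hair, was the target of 2 hairpins, neither called in any comparison. TRCN0000440439 had 0.841%, 1.01% and 0.852% at day 0, 0.515%, 1.15% and 0.576% in culture and 0.215%, 0.406% and 0.411% in lungs. The lung libraries lay below all others, and the change of -1.17 ± 0.39 missed the threshold (limma adjusted p = 0.0517). TRCN0000436596 had 0.0454%, 0.0522% and 0.0361% at day 0, 0.00379%, 0.0201% and 0.130% in culture and 0.000567%, 0.0258% and 0.00890% in lungs, with a 45.5-fold range among the mice. The medians of the 2 hairpins were -1.97 in lungs against day 0, -0.41 in culture against day 0 and -1.47 in lungs against culture.

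Joining the comparisons with day 0, 7 hairpins were called lower in both lungs and culture, 1 (Nalcn) higher in both and 1 (Coro1c) higher in lungs and lower in culture. A further 7 were called higher and 2 lower in lungs alone, 6 higher and 9 lower in culture alone, and 20 in neither. With all 3 groups in 1 fit, 1 of the 7 (Vcp TRCN0000339130) was still called lower in both, because the culture calls of the other hairpins ended. With the replicate block 4 were (Cnot2, Slc37a2, Tmem33 and Vcp). The Nalcn hairpin was no longer called in lungs with the block or with plain shares, and the block called Zdhhc4 TRCN0000241334 higher in both. Plain shares also called Trit1 TRCN0000329236 higher in lungs and lower in culture, and Trit1 TRCN0000375310 lower in both. A call in 1 comparison and not in the other does not show a difference; that was tested by lungs against culture. The 13 hairpins called there had 6 joint patterns. Coro1c TRCN0000313282 rose in lungs and fell in culture. Dusp6, Rbm8a, Sfn, Tmem45b TRCN0000379226 and Trit1 TRCN0000329236 were called higher than day 0 in lungs and not called in culture. Fmn2 TRCN0000417286, Iqgap1 TRCN0000428346 and Zscan20 TRCN0000415744 fell in culture and were not called in lungs. The 4 called lower in lungs than in culture were Arid2 TRCN0000225732 and Trit1 TRCN0000375310, which fell in lungs and were not called in culture, Cnot2, which fell in both, and Ruvbl1, which rose in culture.

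Hairpins against the same gene often differed. Of the 22 genes with at least 2 hairpins in the pool, all hairpins of a gene had changes of the same sign for 10 genes in lungs against day 0, 11 in culture against day 0 and 9 in lungs against culture. Most of these genes had 2 hairpins, and unrelated hairpins can share a sign as well. How often they do was not computed, so these counts do not show agreement within genes. Every hairpin of the gene was called in 1 direction for Nalcn and Tmem45b (both higher) in lungs against day 0 and for Coro1c and Dock8 (both lower) in culture against day 0. Hairpins of a gene were called in opposite directions for Coro1c and Trit1 in lungs against day 0, for Arntl2, Fmn2 and Zscan20 in culture against day 0, and for Trit1 in lungs against culture. With the replicate block, Tmem45b remained as the gene with every hairpin called higher in lungs against day 0, and no gene was called both ways there. For culture against day 0, neither Coro1c nor Dock8 kept all its calls with the block or with all 3 groups in 1 fit, and Arntl2 was no longer called both ways in the latter. With plain shares, Nalcn no longer had both hairpins called in lungs, and Rbm8a was called both ways.

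Other pools held 41 hairpins against 23 of the 26 genes. Their lung tumours came from other mice, and pool 19 shared 3 of its 4 culture libraries with pool 18. Each of these groups had 3 libraries, except for the pool 19 cultures, 2 lung libraries in pool 9, and 6 culture libraries in each of pools 9 and 10. Those 6 came from 2 mixtures of 3 libraries: pool 9 was grown with pool 8 or with pool 10, and pool 10 with pool 9 or with pool 11. For lungs against day 0, 11 genes had pool 18 calls in only 1 direction, and 10 of them had 18 tested hairpins elsewhere. Of those 18, 3 were called in the same direction as in pool 18, 3 in the opposite direction and 12 were not called. Over all pools 33.8% of hairpins were called in this comparison, so these counts are not read as a result about these genes. Sfn TRCN0000112151 in pool 10 rose by 1.43 ± 0.28 (limma adjusted p = 0.0127), as in pool 18, while Sfn TRCN0000112150 in the same pool had 0.73 ± 0.29 and no call. Cnot2 TRCN0000375964 in pool 19 changed by -5.11 ± 1.53 (limma adjusted p = 0.0457), a call that ended with edgeR (adjusted p = 0.179), while Cnot2 TRCN0000375965 in the same pool had 0.14 ± 0.50 and no call. Tmem33 had a hairpin on each side in pool 12: TRCN0000216557 changed by -1.24 ± 0.36 (limma adjusted p = 0.0256) and TRCN0000216503 by 1.06 ± 0.21 (limma adjusted p = 0.00481). Opposite to pool 18, Slc37a2 TRCN0000070098 in pool 9 rose by 2.14 ± 0.47 (limma adjusted p = 0.0303, from 2 lung libraries) and Rbm8a TRCN0000123572 in pool 12 changed by -2.71 ± 0.64 (limma adjusted p = 0.0104). Neither Tmem45b hairpin of pool 9 was called in lungs (-0.10 ± 0.37 and 0.08 ± 0.36), nor were the Dusp6 hairpins of pools 11 and 12 (0.13 ± 0.39 and 0.42 ± 0.26) or the Coro1c hairpins of pool 8 (0.05 ± 0.34 and 0.57 ± 0.22). The Nalcn hairpins of pool 10 were not called in lungs either.

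For culture against day 0, 13 genes were called 1 way in pool 18, and 11 of them had 19 tested hairpins elsewhere, of which 4 were called the same way, 9 the opposite way and 6 were not called. The share called over all pools was 60.6% here, with 28.8% higher and 31.9% lower. Iqgap1 TRCN0000034338 in pool 9 fell as the pool 18 hairpin did (-1.23 ± 0.13, limma adjusted p = 5.28e-06), while Iqgap1 TRCN0000034337 in the same pool rose (0.56 ± 0.11, limma adjusted p = 0.000897). Vcp TRCN0000008413 in pool 9 fell (-2.10 ± 0.32, limma adjusted p = 0.000126). Opposite calls were also seen for Ruvbl1 TRCN0000115241 in pool 10 (-3.58 ± 0.68, limma adjusted p = 0.000762), the reverse of its pool 18 rise, and for Sesn2 TRCN0000087791 in pool 8 (2.35 ± 0.16, limma adjusted p = 3.45e-06). Both Nalcn hairpins of pool 10 were called lower, TRCN0000173700 (-1.49, limma adjusted p = 0.000312) and TRCN0000173744 (-0.74, 0.0106). Coro1c TRCN0000090985 in pool 8 was called higher (2.34, limma adjusted p = 9.21e-08). So were, in pool 9, Sesn2 TRCN0000087792 (1.04, limma adjusted p = 0.00314), Slc37a2 TRCN0000070098 (0.35, 0.0478) and Slc37a2 TRCN0000070100 (2.23, 4.18e-05). For lungs against culture, 11 such genes had 20 tested hairpins elsewhere, of which 2 were called the same way, 2 the opposite way and 16 were not called. The share called over all pools was 24.9%. Sfn TRCN0000112151 (1.25 ± 0.27, limma adjusted p = 0.00763) and Iqgap1 TRCN0000034338 (0.68 ± 0.21, limma adjusted p = 0.0364) were higher in lungs, as in pool 18, while Iqgap1 TRCN0000034337 was not called (0.41 ± 0.25, limma adjusted p = 0.242), nor was Sfn TRCN0000112150 (-0.60 ± 0.32, limma adjusted p = 0.199). Coro1c TRCN0000090985 in pool 8 (-1.69 ± 0.18, limma adjusted p = 1.20e-05) and Tmem45b TRCN0000124225 in pool 9 (-0.86 ± 0.28, limma adjusted p = 0.0496) were lower, while Coro1c TRCN0000090983 (0.58 ± 0.35) and Tmem45b TRCN0000124224 (0.88 ± 0.54) in the same pools were not called. The call of Tmem45b TRCN0000124225 ended with edgeR (adjusted p = 0.0956). With the cultures of 1 mixture at a time, fits added after seeing the data, the culture calls of the Iqgap1, Vcp and Ruvbl1 hairpins named here were kept in either mixture, with Vcp TRCN0000008413 at -2.66 beside pool 8 and -1.66 beside pool 10. Those of Nalcn TRCN0000173700, Sesn2 TRCN0000087792 and Slc37a2 TRCN0000070100 were kept too. The call of Nalcn TRCN0000173744 ended beside pool 9 (limma adjusted p = 0.0657), and that of Slc37a2 TRCN0000070098 beside pool 8 (0.309). The lungs against culture calls of Sfn TRCN0000112151 (limma adjusted p = 0.086 and 0.0742), Iqgap1 TRCN0000034338 (0.0788 and 0.0803) and Tmem45b TRCN0000124225 (0.191 and 0.121) ended in either mixture, with the same direction.

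A few hairpins made up much of the pool in each group. The 5 most abundant held 32.1% ± 1.19 of pool 18 reads at day 0, 43.7% ± 3.61 in culture and 39.3% ± 9.33 in lungs (SD, n = 3). At day 0 they were hairpins against Tmem33 (TRCN0000320321), Ruvbl1, Dusp6, Zim2 (TRCN0000239561) and Trit1 (TRCN0000375310). In culture they were Ruvbl1, Zdhhc4 (TRCN0000241334), Tmem33 (TRCN0000320321), Zim2 (TRCN0000239561) and Nalcn (TRCN0000412654), and in lungs Dusp6, Ruvbl1, Tmem33 (TRCN0000320321) and 2 against Zdhhc4 (TRCN0000241334 and TRCN0000241335). Evenness was summarised as the effective number of hairpins, the exponential of the Shannon entropy of the shares, which is the number of equally abundant hairpins that would be as even. It was 27.1, 28.9 and 26.6 at day 0, 19.6, 22.9 and 23.6 in culture and 22.2, 27.5 and 22.2 in lungs (replicates A, B and C). All cultures lay below all day 0 libraries (22.0 ± 2.14 against 27.6 ± 1.21, exact permutation p = 0.1, two-sided, the smallest that 3 against 3 libraries can give). Lung replicate B lay within the day 0 range and the other two below it (24.0 ± 3.07, exact permutation p = 0.3), a difference of -0.21 on the log2 scale. By the inverse Simpson index, which weights abundant hairpins more, all lung libraries (15.0, 21.1 and 16.3) lay below all day 0 libraries (22.0, 23.6 and 21.6), a difference of -0.37 (exact permutation p = 0.1). They did so too with the 8 control hairpins included (24.2, 28.6 and 25.6 against 31.5, 33.2 and 31.0; -0.29, exact permutation p = 0.1). Lungs and culture overlapped (exact permutation p = 0.6). Adjusted by Benjamini-Hochberg over these 3 comparisons, the exact p-values were 0.3, 0.45 and 0.6. Among the pools with values, pool 18 ranked 17 of 19 from the most even at day 0, 9 of 18 in culture and 5 of 17 in lungs.

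The 8 control hairpins present in every pool were compared with the targeting hairpins of pool 18. Their reads summed to 33.6%, 34.0% and 33.6% of the pool 18 reads at day 0 and to 25.0%, 27.9% and 21.8% in lungs. Each lung library lay below each day 0 library, a difference of -0.45 on the log2 scale (exact permutation p = 0.1, two-sided, the smallest that unpaired groups of 3 allow; with the replicate letters as pairs, exact sign-flip p = 0.25, the smallest that 3 pairs allow). With the controls added to the fit, single controls moved in both directions. The hairpin against Cdkn1b, which encodes the cell cycle inhibitor p27, stood at 5.84%, 6.50% and 5.43% of pool 18 reads at day 0 and 14.9%, 17.1% and 10.9% in lungs, a rise of 1.53 ± 0.21 (limma adjusted p = 0.00143). Non-targeting-shRNA-2, designed to match no mouse gene, fell from 3.01%, 2.95% and 3.11% to 0.113%, 0.410% and 0.774% (-2.92 ± 0.66, limma adjusted p = 0.0129). Non-targeting-shRNA-1 went from 5.80%, 6.29% and 5.55% to 7.19%, 6.59% and 5.75%, with lungs and day 0 overlapping (0.42 ± 0.16, limma adjusted p = 0.0774), and the hairpin against green fluorescent protein (GFP) from 1.5%, 1.91% and 1.40% to 1.02%, 1.43% and 0.854% (-0.29 ± 0.30, limma adjusted p = 0.478); neither was called in lungs. In culture, where the controls came from 2 pools, their sum was 27.6%, 36.8% and 31.4% of pool 18 reads, and 17.9%, 23.9% and 20.9% of the reads of both pools. Relative to pool 18 reads, Non-targeting-shRNA-1 rose in culture by 1.38 ± 0.14 (limma adjusted p = 0.000108), and Non-targeting-shRNA-2 fell (-1.21 ± 0.18, limma adjusted p = 0.000695). Control reads in culture came from cells of both pools but were scaled on pool 18 alone. The size of these culture changes therefore cannot be compared with that of targeting hairpins. The Cdkn1b hairpin rose by 0.58 ± 0.17 (limma adjusted p = 0.0218), and that against GFP was not called (-0.17 ± 0.28, limma adjusted p = 0.621). The part of pool 19 cells in these culture values was not tested.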

How the data were processed

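Members and gene lists were chosen with earlier results of these data known. Per the file headers, the authors deposited a normalised read signal for each hairpin. BWA 0.5.9 is named in the submitters' processing notes; for counting and scaling, the tool is "not given in the sources used here". Dividing each library by its smallest value gave whole reads for 100% of 27241 values (tolerance 0.01 reads), and a hairpin without a value was taken as 0 reads. Because the deposited unit was a scaled signal, limma 3.58.1 (R 4.3.3) with a variance trend and robust estimation was the main test, on log2(CPM + 1), where CPM is relative to pool 18 targeting reads times TMM factors (edgeR 4.0.16). Adding 1 understates changes of rare hairpins. Each fit held only the groups compared, a mean of at least 10 reads was required (0 pool 18 hairpins failed), and p-values were adjusted over all pools. The limma and edgeR fits were also run on simulated reads with known changes and assumed spreads. That run did not cover the recovery of reads. Its outcome is not reported here, so nothing is drawn from it.

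edgeR's quasi-likelihood test on the recovered reads called 17, 21 and 13 pool 18 hairpins in lungs against day 0, culture against day 0 and lungs against culture, all of them among limma's 18, 24 and 13. Depth is given with the libraries; as the PCR carried no molecular identifiers, counting error is a lower limit. Each hairpin with a call is named, with its values in each library, and so are the other hairpins of its gene; 4 of the 8 control hairpins and the summary of 1 gene list are not reported here. The labels do not say whether equal replicate letters mark related samples. Deviations from the group means correlated by 0.17, 0.42 and 0.17 between lungs and day 0 for letters A, B and C. In the other comparisons these correlations ran from -0.32 to 0.09. Such values do not settle whether the letters are pairs. Calls and limma p-values are from fits without pairs unless the replicate block is named. Alternatives were other scalings (DESeq2 1.42.0 size factors, plain shares, the deposited values, the control total), edgeR and DESeq2, the pseudocount, the filter, all 3 groups in 1 fit, the replicate letter as a block and each library left out. Adding the controls to the fit, taking the letters as pairs for the control sum, and fitting the cultures of pools 9 and 10 by mixture were chosen after seeing the data.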

Additional observations from a re-analysis of the deposited data

Results flagged for a closer look

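Changes from day 0 differed between lungs and culture for 13 hairpins by limma's direct comparison of the groups (log2 difference, lungs minus culture, each past the adjusted threshold). They were higher in lungs for Fmn2 TRCN0000417286 (4.43), Coro1c TRCN0000313282 (4.41), Zscan20 TRCN0000415744 (4.17), Trit1 TRCN0000329236 (2.80), Tmem45b TRCN0000379226 (2.43), Iqgap1 TRCN0000428346 (2.09), Dusp6 TRCN0000350080 (1.22), Sfn TRCN0000436998 (1.21) and Rbm8a TRCN0000434151 (1.06). They were lower in lungs for Arid2 TRCN0000225732 (-2.19), Trit1 TRCN0000375310 (-1.96), Cnot2 TRCN0000233432 (-1.65) and Ruvbl1 TRCN0000320136 (-0.97). The calls for Coro1c, Fmn2, Iqgap1, Tmem45b, Zscan20 and both Trit1 hairpins were kept under all alternatives run; those for Arid2, Cnot2, Dusp6, Rbm8a, Ruvbl1 and Sfn ended in at least 1 left-out library, as given with each gene.

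Reads of hairpins that belong to other pools were present at low levels. Pool 13 hairpins made up 0.00771% of reads on average in the lung libraries (510 to 775 reads each) and had 0 reads at day 0. Pool 16 hairpins made up 0.00827% on average in lungs and 0.0192% in culture, beside at most 0.00213% at day 0. Hairpins of all other pools together were not rarer at day 0: they made up 0.200% to 0.605% of day 0 reads, with pool 19 alone at up to 0.392%, and 0.0725% to 0.281% of lung reads; in culture, leaving out pool 19, they made up 0.0868% to 0.404%. These reads entered no comparison, and their source was not tested.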

How the results depend on the processing

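No called hairpin reversed its direction under any alternative run. In lungs against day 0, 12 of 18 calls were kept in every alternative; in culture against day 0, 12 of 24; in lungs against culture, 7 of 13. With 1 library left out, the count of called hairpins ran from 13 to 24, from 17 to 28 and from 8 to 14 in these comparisons, both below and above the counts from all libraries, with the lowest of the last, 8, without culture replicate C; the cause was not tested. All 3 groups in 1 fit gave 12 calls in culture against day 0 and 21 in lungs against culture; the cause was not tested. Requiring a mean of at least 100 reads left Arid2 TRCN0000218090 untested in culture against day 0. The replicate block gave 18, 20 and 12 calls. In lungs against day 0, it ended the calls of Coro1c TRCN0000313283, Nalcn TRCN0000412654 and Trit1 TRCN0000329236, so these calls depend on whether equal letters are pairs. The effective number differed by -0.21 (log2) between lungs and day 0, from -0.31 to -0.16 with a library left out, and by -0.33 between culture and day 0, from -0.38 to -0.25; with the replicate block, exact sign-flip p was 0.25 for both. Between lungs and culture the difference of 0.12 (0.02 to 0.17 with a library left out) turned to -0.0252 when hairpins with at least 0.1% were counted instead. The control sum in lungs against day 0 (-0.45) ran from -0.53 to -0.35; with the replicate block, an alternative chosen after seeing the data, exact sign-flip p was 0.25. In culture against day 0 it was -0.09, 0.43 relative to the median pool 18 hairpin and -0.70 relative to both pools, and from -0.195 to 0.0105 with a library left out; no direction is drawn from it. At the depth of these libraries, a pool 18 share of 3 reads is 4.33e-05% to 8.35e-05%, near the level of Arid2 TRCN0000218090 in 4 of the later libraries. Rbm8a TRCN0000443180 was near it in culture replicate A, with 4 reads.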

Other observations

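Some hairpins differed widely among the 3 mice. Lung shares of Vcp TRCN0000339131, which targets a ubiquitin-dependent ATPase, spanned a 114-fold range, highest in replicate B and lowest in replicate A. Those of Psmd12 TRCN0000328650 spanned an 81.8-fold range, with C highest and B lowest. Arid2 TRCN0000218090 had 98 reads in replicate A, 1 in B and 4 in C, too few for a fold range. The highest share was thus in a different mouse for each of these 3. At the other end, the lung shares of Nalcn TRCN0000412654 and Coro1c TRCN0000313283 spanned a 1.08-fold and a 1.09-fold range.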
